A study of Mus musculus with 4 samples.

Results

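Solute carrier (Slc) genes were followed through maps of the RNA modification N6-methyladenosine (m6A), which is a methyl group carried by some adenosines. The members were all genes whose listed symbol starts with Slc, a family number and a letter. There were 164 of them among 9949 genes with an m6A peak in any library, and they held 674 of 46417 peaks. The maps came from mouse embryonic stem cells of the C57BL/6N strain, 2 wild-type libraries and 2 libraries of Mettl5-/- cells. Mettl5 is a methyltransferase that modifies small-subunit ribosomal RNA, and both genotypes share strain, antibody and protocol. Total RNA was broken into pieces of about 200 nucleotides, enriched with an anti-m6A antibody and sequenced, and a peak list was made for each library separately. The labels do not say how the knockout was made, or whether both libraries of a genotype stem from independent cultures or clones. Their spread may therefore be technical only. Wild type 1 is titled as a control and wild type 2 as wild type, with the same genotype label, and the labels give no further difference. No list held a peak of Mettl5 itself, so the lists do not check the knockout.

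Solute carriers are membrane proteins that move amino acids, sugars, ions, metals, vitamins, nucleotides and metabolites across the plasma membrane and the membranes of organelles. They work without hydrolysing ATP themselves, either by letting a solute run down its gradient or by coupling it to that of an ion such as sodium or protons. Dividing cells depend on them for the uptake of glucose, glutamine and leucine and the export of lactate. In messenger RNA the m6A mark is placed largely by another enzyme complex, built around Mettl3 and Mettl14, and is found mostly around the stop codon, in the 3' untranslated region (UTR) and in long exons.

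Of the 164 members, 159 encode transporters or their subunits and 5 carry an Slc name for another reason. Slc9a3r1 and Slc9a3r2 encode scaffold proteins, Slc4a1ap encodes an adaptor protein, Slc7a6os lies on the strand opposite to a transporter gene, and Slc2a4rg-ps is a pseudogene. The RefSeq table of GRCm38.p6 held 375 protein-coding genes with Slc symbols, of which 163 (43.5%) had a peak in any library, against 37.7% of all 21900 protein-coding genes. RNA levels were not analysed here, so genes without RNA and genes without the mark cannot be told apart. Of 51 Slc families with a protein-coding gene in that table, 41 had a gene with a peak. Every member symbol was found in the table, and 672 of the 674 peaks (99.7%) overlapped the RefSeq gene of the listed name.

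Some Slc transcripts were listed with a peak that reached their first 50 bases, the stretch of RNA for which the promoter table of RefSeq (GRCm38.p6) gives a sequence. Of the 125 members with an entry in that table, 10 had such a peak on their own strand. A single run of 30 bases was taken from each window, at a place that differed between genes. Runs that lay wholly inside a peak in 2 or more libraries are shown here, as DNA letters of the transcribed strand, because these are the bases that the antibody-enriched fragments covered. The run of Slc30a1, at bases 4 to 33, was not wholly inside a peak and is not shown. Peaks in wild type 1, wild type 2 and knockout 2 still reached the Slc30a1 window. Capitals mark GGAC, or GGACT where the run holds it, the core letters of the usual m6A sequence context. The runs lie at chr1:164249046-164249075 (plus strand, Slc19a2), chr19:43674832-43674861 (minus, Slc25a28), chr9:108854063-108854092 (plus, Slc26a6), chr17:34031641-34031670 (minus, Slc39a7) and chr12:80644235-80644264 (plus, Slc39a9).
Slc19a2: agacccggaggcGGACTtagggaaagggcg
Slc25a28: gggccgcgcctgaggcGGACgcaacggggc
Slc26a6: ttgcggccggccaagttctgggcctggcgc
Slc39a7: gcgccgccatgttggtaaaggtatcggggc
Slc39a9: gtgccacttggcggccatggcagctgtagt

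The Slc19a2 run starts at the first base of the gene and was covered in wild type 2, knockout 1 and knockout 2. That of Slc39a7 was covered in all 4 libraries, that of Slc26a6 in wild type 2 and knockout 1, and those of Slc25a28 and Slc39a9 in wild type 2 and knockout 2. None of the 5 runs was covered in the libraries of a single genotype alone. GGAC, searched on the transcribed strand with GGACT counted inside it, was present in 6 of the 10 windows of 50 bases that a peak reached. It was present in 36 of 163 windows of Slc members (22.1%). Some of the 10 windows lay only partly under a peak, so a match in them need not lie inside it. In the whole set of 32851 windows, 18.9% held it, and 17.4% held it on the other strand. GGACT was present in 3 of the 10 windows, in 6.13% of the windows of members and in 5.76% of all windows (4.87% on the other strand). These matches describe letters and are not mapped methylation sites. The Slc39a9 start region also held a peak of Erh on the opposite strand, and the Slc39a7 peaks overlapped those of Gm20427 on the same strand, so the transcript of origin is uncertain for both.

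The number of Slc genes with a peak did not separate the genotypes. It was 136 in wild type 1, 122 in wild type 2, 141 in knockout 1 and 112 in knockout 2, so the knockout libraries lay on either side of the wild-type ones. The wild-type mean was 129.0 ± 9.90 genes and the knockout mean 126.5 ± 20.5 (SD, n = 2 libraries per genotype). The peaks of these genes numbered 178, 154, 188 and 154 in the same order, or 1.52%, 1.37%, 1.48% and 1.42% of their lists. With 2 against 2 libraries the smallest two-sided p of an exact permutation test is 0.333, so no genotype difference was tested. Read depth per library is unknown here, and a gene missing from a list is not shown to lack the mark.

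Most members with a peak in all 4 libraries had a peak at the same place in each. A peak in all 4 libraries was listed for 89 of the 164 Slc genes (54.3%), where the share over all genes with a peak was 57.1%. For 86 of the 89, at least 1 region, meaning peaks joined where their exon blocks overlapped, was shared by all 4 libraries. The same share over all genes is not given here, so this is not shown to be particular to Slc genes. The other 3, Slc35e3, Slc52a3 and Slc5a6, had peaks at different places in different libraries. Peaks in 3, 2 and 1 of the libraries were listed for 29, 22 and 24 Slc genes. These were 17.7%, 13.4% and 14.6% of the members, against 13.3%, 12.5% and 17.0% of all genes. Of the 24 found in a single library, 14 were in knockout 1, the longest list, 4 in wild type 1 and 3 each in wild type 2 and knockout 2. That split is not given here for all genes.

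Few members followed the genotype, and those that did had peaks below the middle of their lists. In the wild-type pair alone 3 Slc genes had a peak (1.83%), against 1.56% of all genes, and in the knockout pair alone 1 had (0.61%), against 2.27%. Among Slc genes in exactly 2 libraries, these 4 made 18.2% of 22 (95% Wilson interval 7.31 to 38.5), and the same share over all genes was 30.6% of 1245. The interval of the Slc share includes that of all genes.

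The wild-type-only genes were Slc25a51, Slc5a2 and Slc27a3. Slc25a51 encodes the mitochondrial carrier of NAD, and its peaks lay in an exon with no finer class, at chr4:45397360-45397510 in wild type 1 (fold 6.15) and chr4:45397360-45397600 in wild type 2 (fold 14.1). Folds here are the authors' enrichment of a peak over a background that the lists do not name, and they describe a peak within its own list. Strength is given below as a percentile, the rank of the peak's listed log10 p-value within its list, where 100 is the strongest. Between 139 and 200 peaks of a list have that value listed as minus infinity. These share 1 rank, at a percentile of 99.1 to 99.5, with no order among them. Among Slc genes the shared rank was held by peaks of Slc2a1, Slc39a7 and Slc20a1. Other Slc peaks, such as those of Slc12a4, have a p-value listed as 0 but a finite log10 value that still ranks them. Where 4 values are given without library names, they stand in the order wild type 1, wild type 2, knockout 1, knockout 2. The Slc25a51 peaks stood at percentiles 14.0 and 35.3, in the weaker part of both lists.

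Slc5a2 encodes a sodium-coupled glucose transporter known from the kidney. Its coding-sequence peak at chr7:128271808-128272221 had the same bounds in both wild-type libraries, with folds of 11.6 and 17.8 and percentiles of 20.8 and 31.8. Slc27a3 encodes a member of the fatty acid transport family, and its exon peaks, which overlapped within chr3:90387269-90387448, had folds of 11.6 and 9.62 and percentiles of 20.8 and 9.24. In wild type 1 the peaks of Slc5a2 and Slc27a3 carried the same fold and the same p-value of 0.0013. The knockout-only gene was Slc46a1, the proton-coupled folate transporter. It had a coding-sequence peak in knockout 1 (chr11:78466821-78467060, fold 15.2, percentile 34.6) and 3' UTR peaks in knockout 2 (both fold 8.22 and percentile 2.83), so no Slc46a1 region was common to the knockout libraries.

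Counted over regions, 237 held an Slc peak. Of these, 101 (42.6%) had a peak in all libraries, 5 (2.11%) in the wild-type pair alone, and 2 (0.844%) in the knockout pair alone. Over all 15487 regions the shares were 42.5%, 2.02% and 2.51%. The genotype counts rest on each single list. Leaving out wild type 1 gave 6 wild-type-only (3.66%) and 8 knockout-only Slc genes (4.88%), against 4.16% and 5.43% of all genes. Leaving out wild type 2 gave 7 (4.27%) and 3 (1.83%), against 5.5% and 4.81%. Leaving out knockout 1 gave 19 (11.6%) and 4 (2.44%), against 6.53% and 4.82%, and leaving out knockout 2 gave 7 (4.27%) and 15 (9.15%), against 4.23% and 10.2%. The counts over all genes rose in these cases too.

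**Figure D1:**
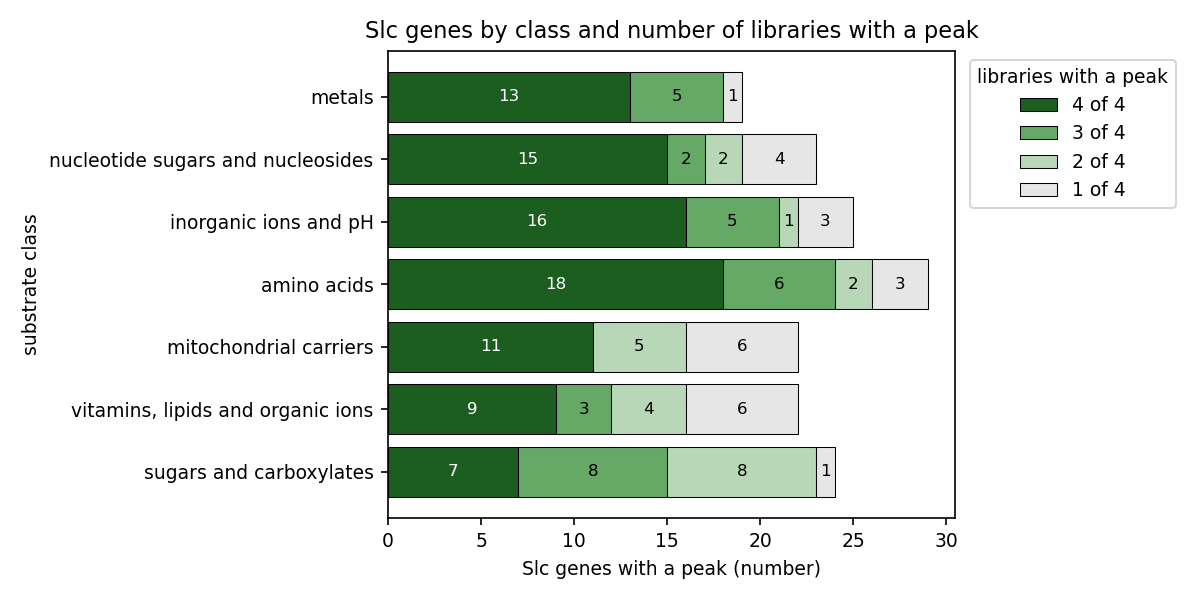
Number of Slc genes with a peak (horizontal axis) in each substrate class, split by how many of the 4 libraries listed a peak, as printed in the bars. The metal class had a peak in all libraries for 13 of 19 genes, the sugar and carboxylate class for 7 of 24.

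Each member was placed by its family number in one of 7 substrate classes. Members that encode no transporter were placed in the same way and count in their class. The share of members with a peak in all 4 libraries was 68.4% for metals (13 of 19), 65.2% for nucleotide sugars and nucleosides (15 of 23), 64.0% for inorganic ions and pH (16 of 25) and 62.1% for amino acids (18 of 29). It was 11 of 22 for mitochondrial carriers, 40.9% for vitamins, lipids and organic ions (9 of 22) and 29.2% for sugars and carboxylates (7 of 24). The plot of genes by class shows that the last class was found mostly in 2 or 3 of the libraries, with 8 genes each. Over all genes with a peak the share was 57.1%, and no test of the differences between classes was run.

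The highest mean percentile over the 4 libraries, 99.0, was that of Slc2a1, which encodes the glucose transporter GLUT1. Its peak was in the 3' UTR in every library, within chr4:119135903-119137384, at percentiles of 99.4 and 98.1 in wild type and 99.5 and 99.1 in the knockout. The authors' folds were 313, 195, 447 and 123 in the order wild type 1, wild type 2, knockout 1, knockout 2. The percentiles of the genotypes overlapped. Slc39a7 shared its rank in wild type 1, knockout 1 and knockout 2, and Slc20a1 shared it in knockout 2 and stood higher in wild type 2. Of the 12 strongest genes, Slc35e1 had the highest fold in every list but knockout 1. There its fold was 327 and that of Slc39a6 was 1150. Slc2a3, which encodes the neuronal-type glucose transporter GLUT3, had an exon peak in wild type 1 (fold 8.22, percentile 54.8) and knockout 1 (fold 2.85, percentile 19.1) and none in the other 2 libraries. Slc5a3, a sodium-coupled myo-inositol transporter, had a coding-sequence peak of 1380 to 1470 bases in all libraries, at percentiles of 94.4 to 94.9.

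Members of the monocarboxylate family, some of which carry lactate and pyruvate, were rarely listed throughout. Of 9 Slc16 genes with a peak, 1 (Slc16a11) had it in all 4 libraries. Slc16a1, which encodes MCT1, had coding-sequence peaks near the top of the lists in wild type 2 (percentile 96.5, fold 27.1) and knockout 1 (97.5, fold 50.5), a weaker peak in knockout 2 (39.3, fold 10.7) and none in wild type 1. Slc16a3, which encodes MCT4, had coding-sequence peaks in wild type 1, knockout 1 and knockout 2 at percentiles of 75.6, 74.2 and 50.9. Slc16a13 had peaks at 85.5 in wild type 1 and 86.6 in knockout 2. In each of these genes both genotypes were represented, and the missing lists did not follow the genotype.

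**Figure D2:**
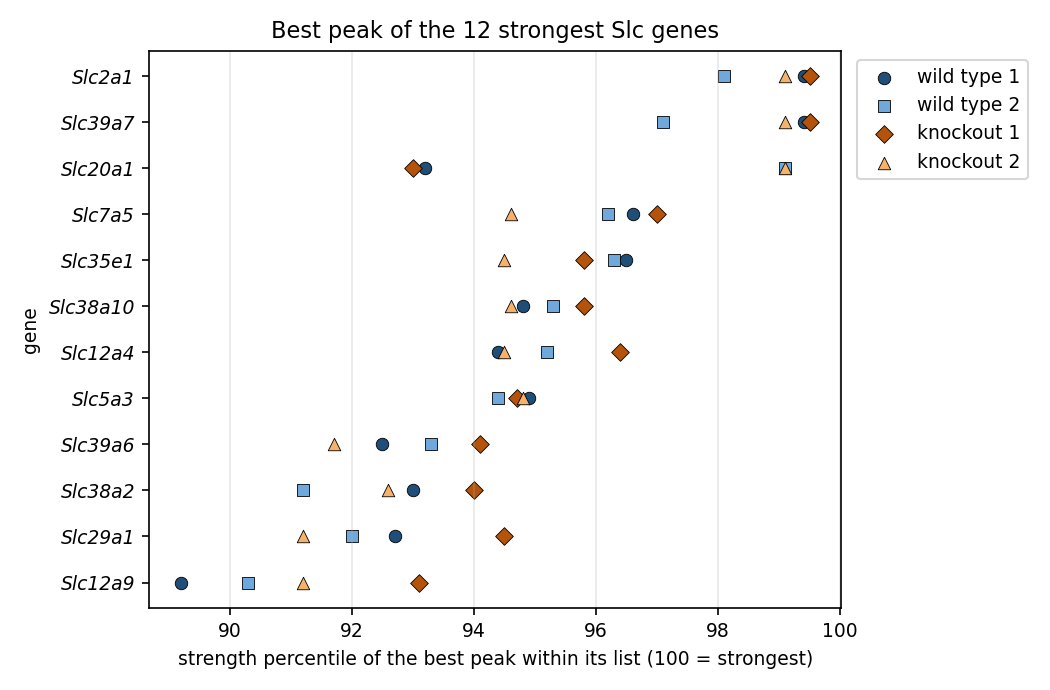
Strength percentile of the best peak within its list (horizontal axis, 100 is the strongest) for the 12 Slc genes with the highest mean, 1 point per library. All points lie between 89.2 and 99.5, and the values of the genotypes overlap in 10 of the 12 genes. In Slc35e1 both wild-type values are the higher ones, and in Slc12a9 both knockout values are. Over all 5683 genes with a peak in all libraries, wild type was above in 10.3% and the knockout in 16.5%.

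The amino acid class had 29 members with a peak, of 67 protein-coding genes in the RefSeq table. Slc7a5, which encodes LAT1, the light chain of the leucine and large neutral amino acid exchanger, had its best peak in the 3' UTR, within chr8:121882047-121883648. Its percentiles were 96.6 and 96.2 in wild type and 97.0 and 94.6 in the knockout, with folds of 855, 284, 521 and 277. A second, weak peak at the start of its coding sequence was listed in every library too, with folds of 2.00 to 3.86. Slc3a2 encodes the heavy chain that pairs with this light chain. Its peak, within chr19:8707600-8707958, had folds of 4.34, 8.14 and 5.13 in wild type 1, wild type 2 and knockout 1 and was not listed in knockout 2.

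Slc38a2, which encodes the amino acid-responsive transporter SNAT2, had a 3' UTR peak at percentiles of 93.0, 91.2, 94.0 and 92.6. That peak ran over 1403 and 1463 exonic bases in the wild-type libraries and over 2418 in knockout 1, while knockout 2 listed 3 peaks of 1403, 240 and 240 bases over the same stretch. Slc38a10 had a coding-sequence peak at 94.8, 95.3, 95.8 and 94.6. Slc1a3, a glutamate transporter best known from glia, stood at 90.3, 90.7, 92.0 and 90.3 and had 2 peaks in every library. Slc1a5, the glutamine transporter ASCT2, stood at 80.6, 81.2, 80.7 and 73.5. Lysosomal Slc36a1 had a mean percentile of 81.2, Slc7a6 one of 78.5 and Slc38a9, an arginine sensor upstream of mTORC1, one of 56.8, all 3 with peaks in all libraries. No peak was listed for Slc7a11, the cystine-glutamate exchanger, or Slc38a1 in any library.

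Metal transporters had 19 members with a peak, and 13 of them had it in all libraries. Slc39a7, which encodes ZIP7, a zinc transporter of the endoplasmic reticulum and Golgi, had 9 peaks in total, in 2 regions between positions 34028267 and 34031690 of chromosome 17. The best of these stood at percentiles of 99.4, 97.1, 99.5 and 99.1. All 9 overlapped a peak that the lists assign to Gm20427 on the same strand. Slc39a6, another zinc importer, had a coding-sequence peak at 92.5, 93.3, 94.1 and 91.7. The zinc importers Slc39a1, Slc39a9 and Slc39a10 had mean percentiles of 80.7, 79.3 and 56.8, and the zinc exporter Slc30a2 78.4. Slc30a1, the zinc exporter of the plasma membrane, had a peak within chr1:191906797-191907246 in every library except knockout 1, with folds of 37.6 in wild type 1 and 48.1 in wild type 2. The lists name that peak a 5' UTR, a coding-sequence and an exon peak in turn, so the named part can change for a peak at the same place.

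Among transporters of inorganic ions, Slc20a1, the sodium-coupled phosphate transporter PiT-1, had a coding-sequence peak within chr2:129207656-129208480 at percentiles of 93.2, 99.1, 93.0 and 99.1. Wild type 1 and knockout 1 shared the lower values and wild type 2 and knockout 2 the higher ones. Its folds were moderate, from 38.8 to 61.0, so p-value and fold ranked it differently. A peak of 9830144P21Rik on the opposite strand overlapped it in every library. Slc12a4, a potassium-chloride cotransporter, had a 3' UTR peak at 94.4, 95.2, 96.4 and 94.5, and its relative Slc12a9 a coding-sequence peak at 89.2, 90.3, 93.1 and 91.2. The sulphate transporter Slc26a2 had a mean of 78.1 and the scaffold gene Slc9a3r2 one of 83.3.

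Nucleotide sugar transporters bring activated sugars into the Golgi and endoplasmic reticulum, and nucleoside transporters move nucleosides across membranes. Slc35e1, placed here by its family number alone, had an exon peak within chr8:72482890-72484700 at percentiles of 96.5, 96.3, 95.8 and 94.5. Its folds were 2480, 1920, 327 and 659. Both wild-type percentiles were above both knockout percentiles. Slc29a1, the equilibrative nucleoside transporter ENT1, stood at 92.7, 92.0, 94.5 and 91.2 with a peak listed as coding sequence in wild type 1 and knockout 1 and as 3' UTR in the other libraries. Slc35g1, Slc35b2 (the carrier of the sulphate donor PAPS) and Slc35e2 had means of 84.4, 84.3 and 82.5. The weakest member listed in all libraries was also in this class. Slc35a2, the UDP-galactose transporter, had 3' UTR peaks with folds of 9.40, 12.6, 6.41 and 8.22 and a mean percentile of 10.2.

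**Figure D3:**
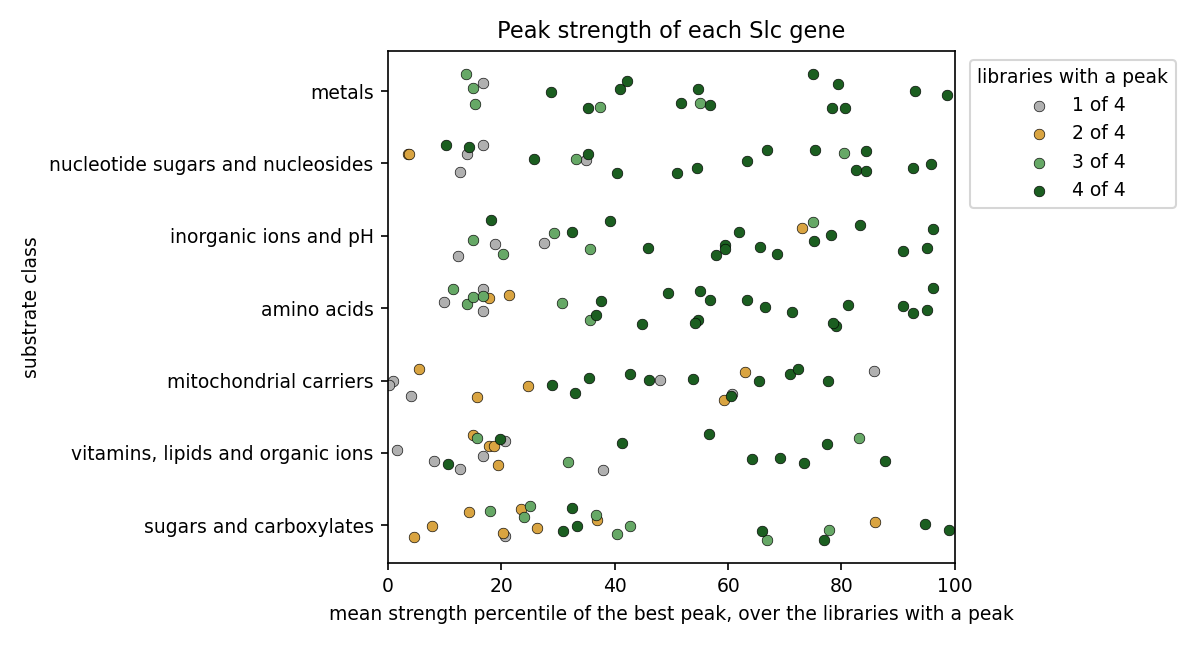
Mean strength percentile of the best peak (horizontal axis, over the libraries with a peak) of each of the 164 Slc genes, by substrate class, 1 point per gene, coloured by the number of libraries with a peak; the vertical scatter within a class carries no value. Genes found in all 4 libraries span 10.2 to 99.0 and most genes found in 1 or 2 libraries lie at low percentiles.

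Mitochondrial carriers bring metabolites, nucleotides and ions across the inner mitochondrial membrane. The 11 found in all libraries had mean percentiles of 28.9 to 77.7, and none of the 12 strongest Slc genes was among them. The strongest was Slc25a38, the glycine carrier needed for heme synthesis, with a 3' UTR peak at 72.8, 78.8, 79.3 and 80.1. Slc25a44 and Slc25a11, the oxoglutarate carrier, had means of 72.3 and 71.0. Slc25a37, which encodes mitoferrin-1, an iron importer, had a single peak in knockout 2 at chr14:69248656-69249615, with a fold of 551 and a percentile of 85.8, and none in the other 3 libraries. Among vitamin, lipid and organic ion transporters, Slc15a3, a lysosomal peptide and histidine transporter, stood at 87.1, 87.5, 89.8 and 85.8, with a peak of Tmem132a on the opposite strand at the same place in each library. The middle of the Slc15a3 peaks lay beyond the end of its RefSeq gene, at 103% to 104% of the gene span. Slc10a3 (mean 83.1) was listed in all libraries but knockout 1, and the choline transporter Slc44a1 (73.3) in all 4.

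The best peaks of the 89 Slc genes found in all libraries had a median percentile of 62.2 and 60.6 in the wild-type libraries and 70.2 and 57.4 in the knockout libraries. Over all 5683 such genes the medians were 67.5, 66.7, 71.7 and 63.7. The knockout medians again lay on either side of those of wild type. Taken gene by gene, the wild-type percentiles were both above the knockout ones in 7 of the 89 (7.87%, against 10.3% of all 5683) and both below in 15 (16.9%, against 16.5%). A mean percentile above 90 was found for 13 of the 89 (14.6%), against 15.2% of all such genes. The number of libraries and the strength went together, since the median over Slc genes was 63.4 for those in 4 libraries, 30.7 for 3, 19.1 for 2 and 16.8 for 1. Over all genes these medians were 66.4, 32.5, 23.3 and 16.8.

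A strong peak did not ensure that a gene was listed everywhere. Of 35 Slc genes with a best peak above the 80th percentile in some library, 5 lacked a peak in 1 or more of the others (14.3%, against 17.3% over all 2753 such genes). These were Slc10a3, Slc16a1, Slc16a13, Slc25a37 and Slc35f2. Slc35f2 had a 3' UTR peak with the same bounds, chr9:53816811-53817468, in wild type 1, wild type 2 and knockout 1 (78.1, 82.7 and 80.8) and none in knockout 2. Wild type 1 lacked Slc16a1 and Slc25a37, wild type 2 lacked Slc16a13 and Slc25a37, knockout 1 lacked Slc10a3, Slc16a13 and Slc25a37, and knockout 2 lacked Slc35f2. In none of the 145 cases in which a member was missing from a library did that library list a peak of another gene in the member's regions, so no missing member was listed under another name there.

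**Figure D4:**
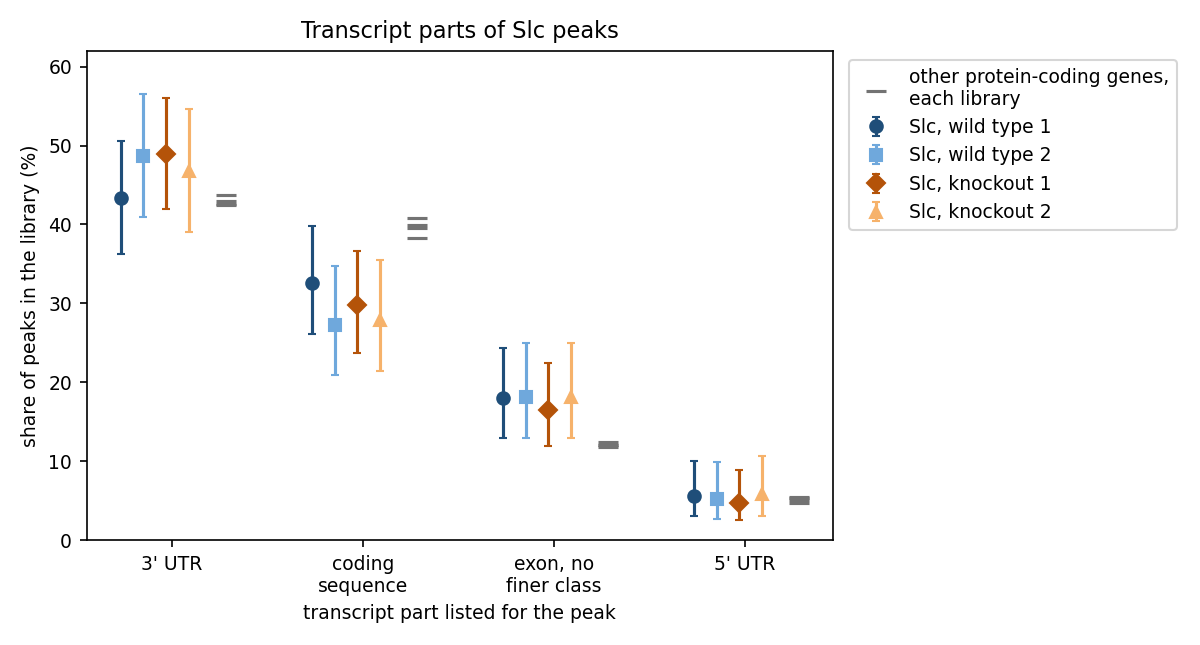
Share of Slc peaks in each transcript part (vertical axis, % of the library's Slc peaks), 1 symbol per library with its 95% Wilson interval, beside grey dashes for the peaks of other protein-coding genes in each library. The libraries' intervals overlap in every part, and the Slc coding-sequence shares (27.3% to 32.6%) lie under the dashes (38.3% to 40.8%).

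Slc peaks lay most often in 3' UTRs. That part held 43.3% and 48.7% of the Slc peaks in the wild-type libraries and 48.9% and 46.8% in the knockout libraries, which gives 46.0% ± 3.85 and 47.8% ± 1.54 (SD over 2 libraries of each genotype). The difference of 1.86 percentage points was smaller than the spread between the wild-type libraries, and it was -0.857 without wild type 1. Coding sequence held 29.9% ± 3.76 of wild-type and 28.9% ± 1.32 of knockout Slc peaks. The values were 18.1% ± 0.144 and 17.3% ± 1.20 for exons with no finer class, and 5.41% ± 0.299 and 5.32% ± 0.747 for 5' UTRs. The coding-sequence difference of -1.07 points was 1.58 without wild type 1.

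Peaks of other protein-coding genes lay less in exons with no finer class (12.1% ± 0.0283 in wild type) and more in coding sequence (39.7% ± 0.167) than Slc peaks did. Their 3' UTR share was 42.8% ± 0.229 (SD, n = 2 each). The coding-sequence share was lower for Slc peaks in each of the 4 libraries, and no test of this difference was run, since the libraries are shared and peaks of a gene are not replicates. The 3' UTR share also varied between substrate classes, with no test. The 3' UTR held between 56.2% and 68.4% of the peaks of mitochondrial carriers over the 4 libraries. Its share was 54.3% to 64.5% in the amino acid class and 52.4% to 68.0% in the metal class. It was 32.3% to 37.5% in the class of inorganic ions and pH and 26.9% to 34.8% in that of sugars and carboxylates. The ranges of the other 2 classes bridged these groups, from 30.8% to 50% for nucleotide sugars and nucleosides and from 36.8% to 50% for vitamins, lipids and organic ions. Along the RefSeq gene span, from start to end, 3' UTR peaks of Slc genes had their middle at a median of 94.7%, coding-sequence peaks at 74.8%, exon peaks at 88.7% and 5' UTR peaks at 1.53%.

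Peaks of a member usually fell in 1 place. A single region held all peaks of 108 of the 164 genes, and 3 had 4 regions, the highest number, namely Slc19a2, Slc20a2 and Slc35a4. The 108 include genes with only 1 peak, which can have no more than 1 region. The same share over all genes is not given here. Slc19a2 encodes a thiamine transporter. Both of its 3' UTR regions, at 164263467 to 164264096 and 164264246 to 164265115 of chromosome 1, had a peak in every library, while a 5' UTR peak was listed in wild type 2, knockout 1 and knockout 2 and a coding-sequence peak in wild type 2 and knockout 1. Its best peak stood at 76.4, 75.9, 79.6 and 78.2. Slc20a2, the phosphate transporter PiT-2, had a strong coding-sequence peak within chr8:22560568-22561442 in wild type 1, wild type 2 and knockout 2 (folds of 135, 89.6 and 84.1) that knockout 1 did not list. Knockout 1 had a weaker one further downstream (percentile 36.5) and shared a 3' UTR region with the other lists. Slc35a4 had a mean of 66.9, with 1 region common to all libraries.

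**Figure D5:**
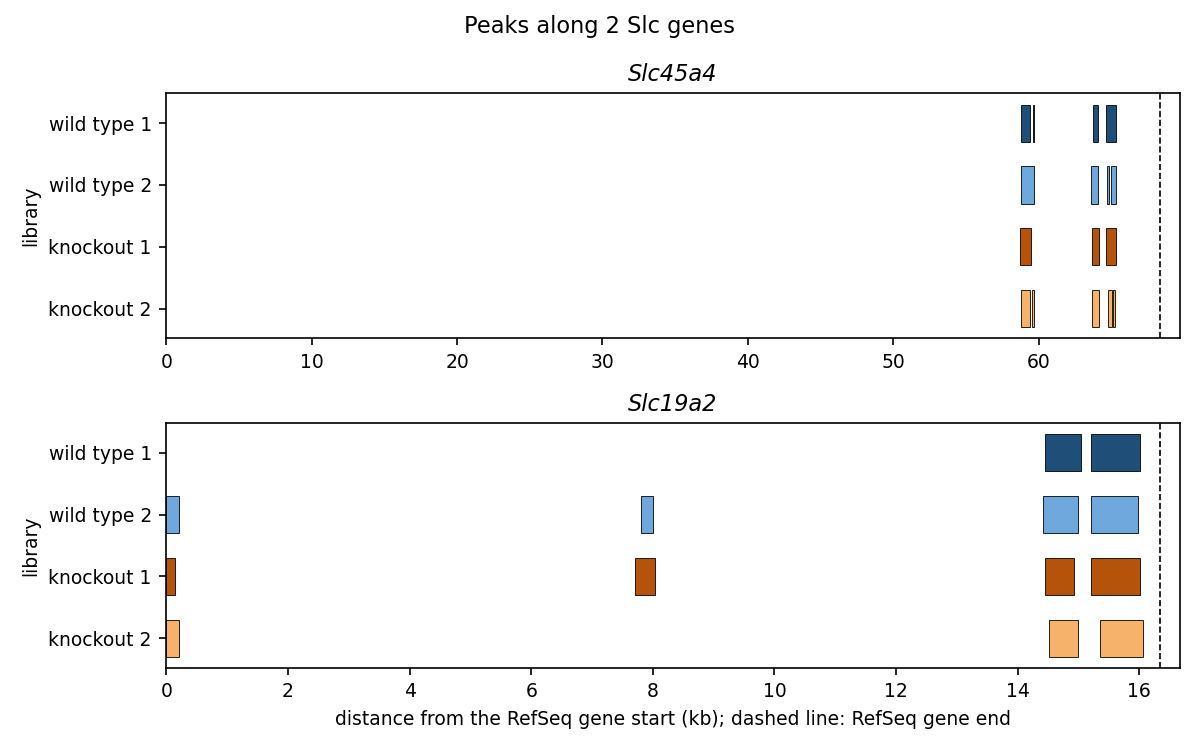
Peaks of Slc45a4 and Slc19a2 as bars along each gene (horizontal axis, kb from the RefSeq gene start, dashed line at the gene end), 1 row per library. Slc45a4 peaks have their middle between 59.1 and 65.2 kb of a 68.3 kb span in all libraries; the Slc19a2 peak at the gene start is missing in wild type 1.

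The highest number of peaks in a library was that of Slc45a4, which had 4, 4, 3 and 5 peaks in the order wild type 1, wild type 2, knockout 1, knockout 2. They fell in the same 3 regions of every library, between positions 73580417 and 73587016 of chromosome 15, and the lists differed in whether a region was 1 peak or 2. In the coding-sequence region, wild type 2 listed 1 peak of 929 exonic bases and knockout 1 one of 720, where wild type 1 listed 121 and 600 bases and knockout 2 listed 151 and 600. Its best peak, in an exon with no finer class, stood at 75.2, 76.0, 82.2 and 74.6. In the map of peaks along this gene, the 4 rows fall in the same places.

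Of the 674 Slc peaks, 35 (5.19%) overlapped a peak of another gene in the same library, 23 of them on the opposite strand, in 10 genes. The sources used here do not name the libraries as stranded, so for these the gene of origin is uncertain. Besides those named above they include Slc26a10 with B4galnt1 and Slc3a1 with Prepl, in all 4 libraries each.

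Other genes of membrane transport were counted in the same way, from lists of symbols. Of the protein-coding genes in the RefSeq table, ABC transporters had a peak for 14 of 50, ATPase pumps for 22 of 67 (32.8%) and ion channels for 63 of 171 (36.8%), against 43.5% of Slc genes. Among all listed symbols with a peak, those found in all 4 libraries were 7 of 14 ABC transporters, 15 of 23 ATPase pumps (65.2%) and 41 of 64 ion channels (64.1%), against 54.3% of Slc genes. In these 3 lists, 0 genes were wild-type-only and 1 ion channel gene was knockout-only. The 3' UTR held 58.1% to 69.6% of the peaks of ATPase pumps over the 4 libraries and 36.5% to 42.1% of those of ion channels, on either side of the 43.3% to 48.9% of Slc peaks. No test of these differences was run.

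Of 8 stem cell markers, Pou5f1, Sox2, Klf4, Esrrb, Tdgf1 and Fgf4 had peaks in all libraries and Nanog and Zfp42 in none of them. Of 5 neural and 5 feeder fibroblast markers, 2 each (Sox1 and Nes, Fn1 and Vim) had peaks in all libraries, and Col1a1, Col1a2, Thy1 and Map2 in none. A peak depends on both RNA and mark, so these counts do not measure the share of other cells.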

How the data were processed

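The authors deposited a peak list for each of the 4 m6A immunoprecipitation libraries, so peaks were called per sample. Per the file headers, each peak has a position, exon blocks, gene, transcript part, p-value, log10 values of it and of its adjusted form, and an enrichment fold, which is a ratio to an unnamed background. HISAT2, HOMER and the mm10 build are named in the submitters' processing notes; the peak caller is not given in the sources used here. Coordinates are mm10, printed 1-based; RefSeq genes and sequences are those of GRCm38.p6, the same assembly.

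Peaks off the reference chromosomes (3, 5, 6 and 3 of a list) were left out. A region joins peaks that share 1 bp or more of exon block, strand ignored. Each peak's log10 p-value was ranked in its own list to give the strength percentile, and a gene was given that of its strongest peak. Presence was counted, with no test. Wilson intervals (95%) cover counting error only, and the depth behind the lists is unknown. Substrate classes follow family numbers. Named genes were those of 1 genotype, the 12 strongest, those with 4 or more regions, a list of 13 genes, and up to 3 more per class; others were named after their values were seen. A gene that this rule chose is not reported here. The members, lists and comparison lists were chosen with earlier results of these data known. The counting was tested on simulated lists. Python 3.11.15, numpy 2.4.6 and pandas 2.3.3 were used. Alternatives were an adjusted p-value under 0.05, the stronger 50% of each list, equal list lengths, regions for genes, leaving out non-transporters, base pairs for peaks, other strength measures, and leaving out each library.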

Additional observations from a re-analysis of the deposited data

How the results depend on the processing

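The number of Slc genes in all 4 libraries was 89, also with an adjusted p-value under 0.05 (54.6%, against 57.5% of all genes). It was 86 of 152 with lists of equal length (56.6%, against 59.1%) and 87 without genes that encode no transporter. When a library was left out it was 91 to 105, or 55.5% to 64%, against 59.7% to 62.1% of all genes. Counted over regions, 101 of 237 had a peak in all libraries (42.6%, against 42.5% of all regions). The stronger 50% of each list left 48 of 88 (54.5%), against 3309 of 5935 genes (55.8%). The wild-type-only count of 3 became 1 in the stronger 50% and 4 with lists of equal length (2.63%, against 1.79% of all genes). It was 5 over regions and 6 to 19 when a library was left out. The knockout-only count of 1 became 2 over regions and 3 to 15 when a library was left out. Over all genes the wild-type-only count was 97 in the stronger 50% and 414 to 650 of 9949 when a library was left out, and the knockout-only count 479 to 1014. A genotype is then judged from 1 list; the cause of the other changes was not tested. The median strength of 63.4 was 65.0 by fold and 54.6 with the median peak of a gene, where all such genes had 66.9 and 56.1; it was 59.5 to 63.1 when a library was left out. Knockout minus wild-type part shares moved by less than the SD of the libraries in the alternatives run, but their sign did not hold: -0.857 to 4.59 points for the 3' UTR and -3.73 to 1.58 for coding sequence when a library was left out. No paired analysis was possible because replicate numbers stand only in the knockout labels, and the wild-type numbers used here follow accession order and pair nothing. Depth is unknown, so it cannot be said which peaks were missed for lack of reads.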
